A study of Mus musculus with 36 samples.

Results

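Genes for subunits of sodium, potassium and calcium channels and of the hyperpolarisation-activated HCN channels were examined in RNA sequencing counts from the embryonic mouse forebrain with graded loss of Chd8, which encodes a chromatin remodeller. Members were chosen by gene symbol (Scn, Cacna, Cacnb, Cacng, Hcn and Kcn names) and a mean of at least 10 counts per library in a table. In all, 135 symbols matched, of which 110 passed this minimum at one stage or the other, 109 at E12.5 and 99 at E10.5, out of 46603 genes listed in each table. The remaining 26 symbols at E12.5 and 36 at E10.5 lay under the minimum, among them 2 and 4 with no read in any library. The symbols take in more than voltage-gated channels. By class the 110 genes comprised 7 sodium channel pore subunits, 4 sodium channel beta subunits, 8 calcium channel pore subunits, 14 calcium channel auxiliary subunits, 4 HCN subunits, 32 voltage-gated potassium pore subunits, 12 potassium channel auxiliary subunits, 8 calcium- or sodium-activated potassium channels, 13 inward rectifiers and 8 two-pore potassium channels.

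Voltage-gated channels open when the membrane potential changes: sodium channels carry the upstroke of the action potential, potassium channels repolarise the membrane and set the resting potential, and calcium channels couple electrical activity to transmitter release, enzymes and transcription. Pore subunits conduct the ion, and auxiliary subunits set how much channel reaches the membrane and how fast it opens and closes. In the embryonic cortex, progenitors carry mainly potassium channels, and newborn neurons acquire sodium and calcium channels as they differentiate.

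At E12.5 the neocortex was sequenced from single C57Bl/6J embryos of 4 genotypes, with 3 embryos each, namely wildtype Chd8 +/+, heterozygous Chd8 +/-, and the hypomorphic Chd8 neo/neo or Chd8 neo/- combinations. The neo allele carries a selection cassette in an intron, into which transcripts are spliced, so that less intact mRNA is made, and it came from targeted embryonic stem cell clones. The null allele lacks an exon, removed with Cre under the β-actin promoter, so that Chd8 was reduced in every cell of these embryos. Chd8 neo/neo and Chd8 neo/- embryos are called the mild and the severe hypomorph. At E10.5 telencephalic vesicles of 2 embryos were pooled per library, in 3 cKO libraries (sox1-Cre with Chd8 f/f) and 3 Ctrl libraries (a mix of f/f and f/+ by the labels, without Cre by the study's methods). Sox1-Cre acts in the neuroepithelium and leaves Chd8 in blood vessels, blood and mesenchyme. The hypomorph comparisons below share the 3 Chd8 +/+ libraries, so their values are set side by side and not taken as independent of each other. Replicates are separate embryos or pools.

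The E12.5 libraries held 38774591 to 61051667 counts each, and the E10.5 libraries 49632937 to 68488879. Chd8 itself was at 235 to 239 CPM (its count relative to the scaled library total) in Chd8 +/+, 165 to 170.2 in Chd8 +/-, 203 to 213 in Chd8 neo/neo and 142 to 158 in Chd8 neo/- libraries, and at 160.0 to 184 in Ctrl and 116 to 125.3 in cKO, with no overlap between any mutant group and its control. These counts include exons outside the altered part of the gene. Of the 12 libraries at E12.5, 1 Chd8 +/+ (replicate 3), 1 Chd8 +/- (replicate 1) and 2 Chd8 neo/neo (replicates 1 and 2) carried high Xist with Y-linked genes near 0, and all Chd8 neo/- libraries the reverse. Chd8 neo/neo replicate 3 stood nearer to Chd8 +/+ than the other two of its group for many members below, and 3 libraries stood apart in Scn2a. Cortical markers were present at E12.5 (8 genes, summed at 1133 to 1186 CPM in Chd8 +/+) and at E10.5 (482 to 599.6 CPM in Ctrl), where Neurod6, which marks later cortical neurons, had no read.

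In wildtype tissue most channel genes were higher at E12.5 than at E10.5. On the scale of mean CPM per kilobase of exon, 82 of the 98 members listed at both stages (83.7%) were higher in Chd8 +/+ neocortex than in Ctrl telencephalon, with a median ratio of 3.02. Over the 17703 genes tested at both stages, 46.2% were higher at E12.5 and the median ratio was 0.961. The 2 stages come from separate tables, each normalised on its own, and differ in dissection and allele, so these levels were not tested. Relative to all genes tested, members were long and of low abundance, with a median exon length of 4.56 kb against 3.40 kb, a median genomic span of 56.0 kb against 17.8 kb, and a median level of 4.96 CPM against 14.1 CPM at E12.5.

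Among the sodium channels, Scn3a, which encodes Nav1.3, the main pore of the fetal brain, was highest per kilobase of its class at E12.5, at 7.64 ± 0.691 CPM per kb (SD, n = 3) against 0.727 ± 0.158 at E10.5. Of the beta subunits, which are cell adhesion molecules as well as modulators of the pore, Scn3b stood at 8.27 ± 1.43 CPM per kb at E12.5 and 0.2 ± 0.0625 at E10.5, a ratio of 41.2. Scn2b was nearly level between the stages (1.69 ± 0.0542 and 1.88 ± 0.0884 CPM per kb). Scn8a (Nav1.6, the pore of the axon initial segment) was at 3.17 ± 0.303 and 1.52 ± 0.125, Scn2a (Nav1.2) at 1.15 ± 0.139 and 0.271 ± 0.0459, and Scn1a (Nav1.1) at 0.76 ± 0.0307 and 0.334 ± 0.0354 CPM per kb.

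The low-threshold T-type pore Cacna1g was the highest calcium channel pore at both stages, at 7.7 ± 0.907 CPM per kb at E12.5 and 10.3 ± 1.18 at E10.5, so it was the lower of these at the later stage. The other T-type pores were higher at E12.5, as were the high-threshold pores. Cacna1h went from 1.77 CPM per kb at E10.5 to 7.40 at E12.5, close to Cacna1g, and Cacna1i from 0.0357 to 0.568. Cacna1b, the presynaptic N-type pore, went from 0.477 ± 0.1 CPM per kb at E10.5 to 3.51 ± 0.439 at E12.5, and Cacna1e, the R-type pore, from 0.2 ± 0.0476 to 1.46 ± 0.173. Cacna1a (P/Q-type), Cacna1c and Cacna1d (L-type) were at 2.18 ± 0.192, 1.35 ± 0.169 and 0.793 ± 0.0667 CPM per kb at E12.5. Cacna1c overlaps Dcp1b on the opposite strand, which had 1687.5 counts per library at E12.5 against 1270 for Cacna1c. The gamma subunit gene Cacng7, whose product is better known as a partner of AMPA receptors, was the most abundant of all members per kilobase, at 55.9 ± 2.12 and 38.9 ± 3.14 CPM per kb. Cacng2, of the same family, had the largest ratio between stages (45.1), from a level of only 0.0379 ± 0.00649 CPM per kb at E10.5.

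Among potassium channels, Kcnq3, a pore subunit of the M-current that holds neurons below threshold, was 12.6 times higher at E12.5 than at E10.5. Kcnh2, the ERG pore, was the highest of the voltage-gated potassium pores at E10.5 and hardly differed between the stages (4.31 ± 0.348 and 4.81 ± 0.285 CPM per kb). Kcnc1 (26.7 times), Kcnh7 (23.6), Kcnd3 (20.5) and Kcnh8 (32.6) were the voltage-gated pores with the largest ratios. Per kilobase the highest members of the other classes were Hcn3 and, among calcium-activated channels, Kcnn1 at both stages. At E12.5 and then E10.5 they were Kcnip3 and Kcne3 among auxiliary subunits, Kcnj10 (level with Kcnj8) and Kcnj2 among inward rectifiers, and Kcnk10 and Kcnk5 among two-pore channels. Hcn3 overlaps Pklr on the opposite strand, which had 704 counts per library at E10.5 against 382 for Hcn3, so its level there may include reads of Pklr. The 16 members that were lower at E12.5 included no calcium channel pore other than Cacna1g, and the lowest ratios were those of Cacng6 (0.214), Kcna1 (0.252), Kcne3 (0.255), Kcnn4 (0.374) and Kcnk1 (0.376).

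**Figure D1:**
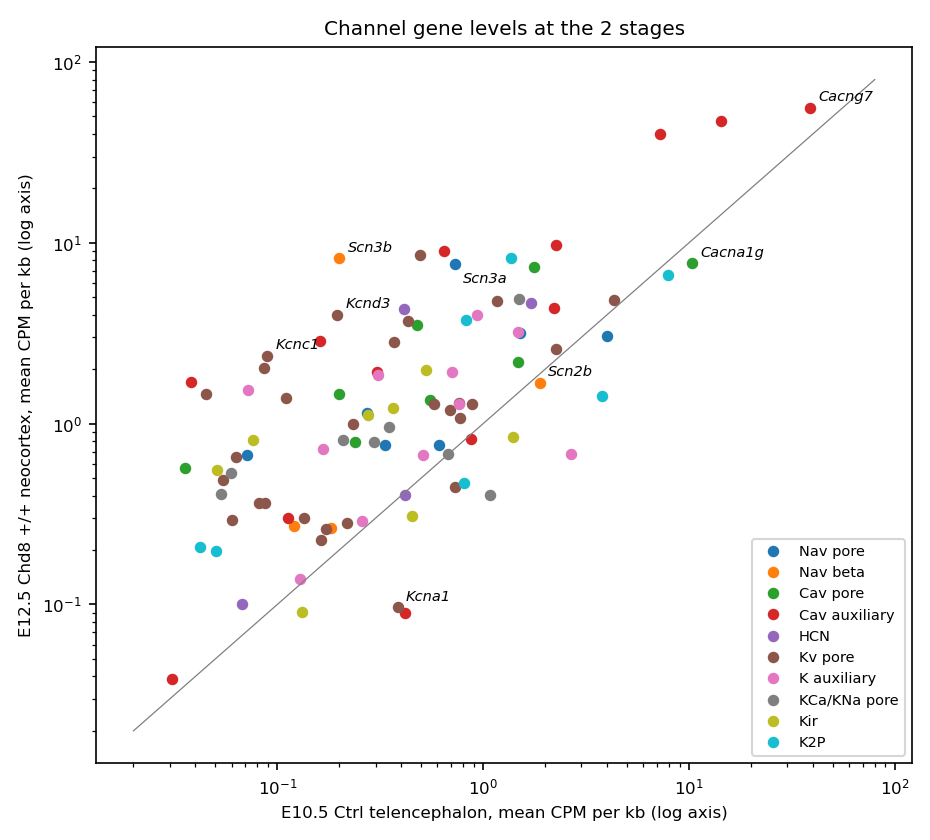
Mean level of the 98 channel genes listed at both stages, in CPM per kilobase of exon on log axes, with Ctrl telencephalon at E10.5 on the horizontal axis, Chd8 +/+ neocortex at E12.5 on the vertical axis and 1 point per gene coloured by class. The line marks equal levels; 82 genes lie above it, with Scn3b, Kcnc1 and Kcnd3 far above and Kcna1 below.

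Scn2b, Scn8a and Kcnn1 were the members called lower (edgeR, adjusted p under 0.05) both in a hypomorph at E12.5 and in cKO at E10.5, and their promoters are shown for that reason. Scn2b (ENSMUSG00000070304) spans chromosome 9, 45117876 to 45130070, on the plus strand of GRCm38, Scn8a (ENSMUSG00000023033) chromosome 15, 100869858 to 101045938, on the plus strand, and Kcnn1 (ENSMUSG00000002908) chromosome 8, 70842049 to 70857008, on the minus strand. The 250 bases before a transcription start of each, from RefSeq on GRCm38.p6, read 5′ to 3′ on the gene's strand with CpG dinucleotides in capitals:
Scn2b, chr9:45117626-45117875, plus strand: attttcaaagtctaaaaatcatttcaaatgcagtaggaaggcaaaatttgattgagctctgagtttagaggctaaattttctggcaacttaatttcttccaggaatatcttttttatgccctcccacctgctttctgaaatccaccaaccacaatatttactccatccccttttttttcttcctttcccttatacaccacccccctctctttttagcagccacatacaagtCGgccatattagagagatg
Scn8a, chr15:100870395-100870644, plus strand: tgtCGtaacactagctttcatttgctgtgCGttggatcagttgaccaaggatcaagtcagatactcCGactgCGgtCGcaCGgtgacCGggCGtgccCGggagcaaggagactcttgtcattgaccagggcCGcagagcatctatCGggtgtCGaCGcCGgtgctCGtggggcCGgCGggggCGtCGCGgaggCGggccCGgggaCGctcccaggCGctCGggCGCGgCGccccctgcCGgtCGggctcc
Kcnn1, chr8:70857009-70857258, minus strand: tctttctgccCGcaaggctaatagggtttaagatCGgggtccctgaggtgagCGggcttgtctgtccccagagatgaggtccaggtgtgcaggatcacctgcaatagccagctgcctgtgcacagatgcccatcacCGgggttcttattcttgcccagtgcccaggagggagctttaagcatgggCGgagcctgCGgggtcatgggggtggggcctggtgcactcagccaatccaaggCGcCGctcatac
The Scn2b window is AT-rich, at 38.4% GC, and holds 1 CpG. The Scn8a window holds 30 CpG at 68.0% GC, and that of Kcnn1 8 at 60.4% GC. Scn8a and Kcnn1 each have 2 starts in the RefSeq table, and the other window holds 9 and 10 CpG. Over 32851 such windows of all genes the median was 6 CpG (quartiles 2 and 16), and over the 111 windows of the 78 members matched it was 8. Read on both strands, TATAAA was in 3.6% of member windows and 12.4% of all windows, GGGCGG in 42.3% and 32.7%, and CCAAT in 28.8% and 33.8%. None of these motifs contains another, though matches read on both strands can share bases. Of the windows printed, GGGCGG and CCAAT were both present in Kcnn1, none of these motifs was in Scn2b or Scn8a, and their presence says nothing of what binds there.

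In Chd8 +/- neocortices no channel gene passed the threshold, an adjusted p under 0.05 in edgeR's quasi-likelihood test over all genes tested, against 0.0213% of all 18810 genes. An unadjusted p under 0.05 was reached by 6 of the 109 members, DESeq2 called 1, and the median log2 fold change was -0.01. Scn2b came nearest, with no overlap between the groups. It was at 7.5, 7.98 and 7.63 CPM in the Chd8 +/+ libraries and at 4.93, 6.05 and 5.01 CPM in the Chd8 +/- libraries, a log2 fold change of -0.53 (edgeR adjusted p = 0.27, SE 0.10).

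In both hypomorphs most of the called channel genes were lower than in Chd8 +/+. In Chd8 neo/neo neocortices 15 of the 109 members (13.8%) were called, beside 8.16% of all genes tested. Of these 14 were lower, as 4.45% of all genes were, and 1 was higher, as were 3.71%. The median log2 fold change of members was -0.25, with 86 below 0, against 0.01 over all genes. In Chd8 neo/- neocortices 18 members (16.5%) were called, beside 11.5% of all genes. Of these 16 were lower, as 5.99% of all genes were, and 2 were higher, as were 5.48%. The median was -0.21, with 85 members below 0. The groups did not overlap, lower in the mutant, for 36 members in the mild and 44 in the severe hypomorph, where 13.5% and 16.9% of all genes did so. They did not overlap in the other direction for 5 and 9 members, where 12.5% and 16.4% of all genes did so. Single libraries moved these counts: the count for Chd8 neo/neo was 4 without Chd8 +/+ replicate 2, 5 when its own replicate 1 or 2 was left out and 38 when its replicate 3 was. The Chd8 neo/- count was 10 without Chd8 +/+ replicate 1, 9 without Chd8 +/+ replicate 2, 6 without Chd8 neo/- replicate 1 and 5 without Chd8 neo/- replicate 2. Scn2b, Scn8a and Cacna1b kept their calls in all 22 alternatives in each hypomorph, as did Cacnb4 in Chd8 neo/neo and Kcnn1 in Chd8 neo/-. Each of the other calls was lost in at least 1 alternative.

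The largest of these falls in either hypomorph was that of the sodium channel subunit gene Scn2b. It was at 3.5, 3.47 and 4.01 CPM in the Chd8 neo/neo and 2.53, 2.71 and 2.78 CPM in the Chd8 neo/- libraries, so that every hypomorph library lay under every Chd8 +/+ and every Chd8 +/- library. The log2 fold changes were -1.07 (edgeR adjusted p = 0.000265, SE 0.11) in Chd8 neo/neo and -1.52 (edgeR adjusted p = 2.49e-06, SE 0.11) in Chd8 neo/-. Scn8a was measured at 55.1, 49.2 and 45.7 CPM in Chd8 +/+, 46.1, 44.1 and 39.4 in Chd8 +/-, 38.5, 38 and 40.4 in the Chd8 neo/neo and 38.4, 34.1 and 36.9 CPM in the Chd8 neo/- libraries. Neither hypomorph overlapped Chd8 +/+, and the log2 fold changes were -0.36 (edgeR adjusted p = 0.0111, SE 0.073) and -0.46 (edgeR adjusted p = 0.0016, SE 0.073). Scn3a, the most abundant sodium pore, was at 95, 104 and 86.8 CPM in Chd8 +/+, 72.8, 77.3 and 80.4 in Chd8 neo/neo and 80.9, 74.8 and 85.4 in Chd8 neo/- libraries, with smaller log2 fold changes of -0.31 (edgeR adjusted p = 0.0175, SE 0.069) and -0.24 (edgeR adjusted p = 0.0349, SE 0.069). The other sodium channel genes did not pass the threshold. Scn3b was at 42.4, 54.9 and 40.2 CPM in Chd8 +/+ and 22.6, 24.5 and 38.4 in Chd8 neo/neo libraries, a log2 fold change of -0.68 (edgeR adjusted p = 0.0681, SE 0.20), and at 33.4, 29.2 and 35.3 in Chd8 neo/-. For Scn1a the log2 fold changes in the mild and the severe hypomorph were -0.10 and 0.00.

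Scn2a (ENSMUSG00000075318, chromosome 2, 65620771 to 65767447, plus strand of GRCm38) split libraries of the same genotype. It was at 14.9, 16.3 and 12.8 CPM in Chd8 +/+ and 15.3, 14.2 and 14.1 CPM in Chd8 +/-, but at 6.99, 7.82 and 70.02 CPM in the Chd8 neo/neo and 64.5, 59.6 and 10.03 CPM in the Chd8 neo/- libraries. Chd8 neo/neo replicate 3 and Chd8 neo/- replicates 1 and 2 thus stood above all other libraries, and the other 3 hypomorph libraries below every Chd8 +/+ and Chd8 +/- library. Both sequencing runs of each library gave this split. The log2 fold change was 0.95 (edgeR adjusted p = 0.6, SE 0.96) in Chd8 neo/neo and -0.99 (edgeR adjusted p = 0.435) without Chd8 neo/neo replicate 3, and 1.61 (edgeR adjusted p = 0.342, SE 0.96) in Chd8 neo/-, none of which passed the threshold. Between the 3 high libraries and the next there was a step of 3.65-fold. Of 14787 genes with a mean of at least 1 CPM, 26 had a step as large between some pair of neighbouring libraries, and Scn2a was the only one with a step of 1.5 or more and these same 3 libraries above it. Its neighbours on chromosome 2, Scn3a, Csrnp3, Galnt3, Ttc21b, Scn1a and Scn9a, varied between 1.18- and 2.38-fold over the 12 libraries, against 10.01-fold for Scn2a. The group means behind these fold changes thus lie between libraries far apart.

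**Figure D2:**
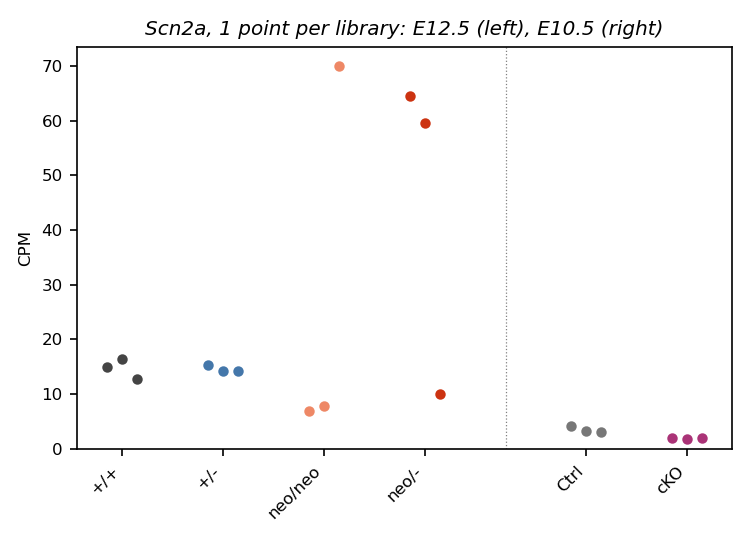
Level of Scn2a in CPM, 1 point per library, in the 4 genotypes at E12.5 (left of the dotted line) and in Ctrl and cKO at E10.5 (right). Chd8 neo/neo replicate 3 and Chd8 neo/- replicates 1 and 2 lie at 70.02, 64.5 and 59.6 CPM, and the other hypomorph libraries at 10.03 CPM or less.

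All 8 calcium channel pore subunits had log2 fold changes below 0 in both hypomorphs, and 3 passed the threshold in each. Cacna1b (ENSMUSG00000004113, chromosome 2, 24603887 to 24763152, minus strand) was at 35.8, 38.8 and 30.2 CPM in Chd8 +/+, 33, 31.6 and 26.8 in Chd8 +/-, 20.3, 21.5 and 25.3 in the Chd8 neo/neo and 21.9, 20.9 and 21.8 CPM in the Chd8 neo/- libraries. No hypomorph library reached the lowest Chd8 +/+ or Chd8 +/- library, and the log2 fold changes were -0.64 (edgeR adjusted p = 0.00511, SE 0.10) and -0.70 (edgeR adjusted p = 0.00139, SE 0.10). Cacna1e was at 36.3, 40.4 and 31.8 CPM in Chd8 +/+ and 24.6, 22.1 and 29.5 in Chd8 neo/neo libraries, with a log2 fold change of -0.51 (edgeR adjusted p = 0.0413, SE 0.13), and did not pass in Chd8 neo/- (-0.27, edgeR adjusted p = 0.224). The L-type pore Cacna1d had -0.47 (edgeR adjusted p = 0.0341, SE 0.12) in Chd8 neo/neo. It overlaps Dcp1a on the opposite strand, which had 3049 counts per library against 301 for Cacna1d, and the counting at E12.5 did not separate strands. In Chd8 neo/- the T-type pores Cacna1i, with -0.56 (edgeR adjusted p = 0.0123, SE 0.13), and Cacna1h, with -0.40 (edgeR adjusted p = 0.0335, SE 0.11), fell. Cacna1a, Cacna1c and Cacna1g did not pass the threshold in either, with log2 fold changes between -0.25 and -0.05.

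Of the 14 calcium channel auxiliary genes, 3 were called in the mild and 2 in the severe hypomorph, all lower. These are 21.4% and 14.3% of the class. Of all genes 8.16% and 11.5% were called, and 4.45% and 5.99% were called lower. Cacna2d3, whose product lies outside the membrane and raises channel number, was at 10.3, 12 and 9.59 CPM in Chd8 +/+, 6.73, 6.46 and 8.97 in the Chd8 neo/neo and 7.27, 7.03 and 8.68 CPM in the Chd8 neo/- libraries, with log2 fold changes of -0.52 (edgeR adjusted p = 0.0222, SE 0.12) and -0.47 (edgeR adjusted p = 0.0259, SE 0.12). Cacnb4, a cytoplasmic beta subunit, was at 17, 18.9 and 15.9 CPM in Chd8 +/+ and 18.3, 16.1 and 17.9 in Chd8 +/-, and at 12.2, 12.5 and 14.1 and 13.2, 13.2 and 14.2 CPM in the hypomorphs, which did not overlap the former. Its log2 fold changes were -0.41 (edgeR adjusted p = 0.0099, SE 0.081) and -0.35 (edgeR adjusted p = 0.0133, SE 0.081). Cacng4 was called in Chd8 neo/neo only, at -0.23 (edgeR adjusted p = 0.0417, SE 0.063), and had -0.19 (edgeR adjusted p = 0.0637) in Chd8 neo/-; whether these differ was tested by the direct comparison of the hypomorphs, which did not pass. Cacng7, the most abundant member per kilobase, was at 129 to 143 CPM in all 6 hypomorph libraries and 133 to 142 CPM in Chd8 +/+.

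Among the 32 voltage-gated potassium pores, 29 had log2 fold changes below 0 in each hypomorph, and 3 were called in the mild and 6 in the severe hypomorph, all lower. These are 9.38% and 18.8% of the class. Of all genes 8.16% and 11.5% were called, so the share in the mild hypomorph was near that of all genes. Lower calls made up 4.45% and 5.99% of all genes. Kcnq3 had -0.58 (edgeR adjusted p = 0.0642) and -0.39 (edgeR adjusted p = 0.171) and did not pass. Kcnc1, the fast Kv3.1 pore, was at 21.3, 24.2 and 19.6 CPM in Chd8 +/+ and at 11.2, 12.3 and 16.6 and 13.7, 13.6 and 15.2 CPM in the hypomorphs, below every Chd8 +/+ library, with -0.70 (edgeR adjusted p = 0.0175, SE 0.15) and -0.62 (edgeR adjusted p = 0.0204, SE 0.15). Kcna2 (Kv1.2) fell in Chd8 neo/neo, with a log2 fold change of -0.53, and missed the threshold narrowly in Chd8 neo/- (-0.46, edgeR adjusted p = 0.0502). In Chd8 neo/- the others called included Kcna6 (-0.56) and Kcna3 (-0.42), both with groups that did not overlap. Kcnd2 (Kv4.2) did not pass in either, with log2 fold changes of -0.10 and -0.16, and of the HCN genes only Hcn4, which sets pacemaker current in the heart, was called, in Chd8 neo/- (-0.42).

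The rises were few. Kcne3, an auxiliary subunit known from epithelia, was at 1.12, 1.25 and 1.15 CPM in Chd8 +/+ and 1.98, 3.07 and 1.58 CPM in Chd8 neo/neo libraries, a log2 fold change of 0.93 (edgeR adjusted p = 0.0211, SE 0.22). Kcnn4, the intermediate-conductance calcium-activated channel known from red blood cells and lymphocytes, was at 1.04, 0.59 and 0.829 CPM in Chd8 +/+ and 1.23, 2.66 and 1.75 CPM in Chd8 neo/- libraries, with 1.19 (edgeR adjusted p = 0.0397, SE 0.34). Erythroid markers were higher in the same Chd8 neo/- libraries: 3 of 6 were called higher, as 5.48% of all genes were, all 6 had log2 fold changes above 0, and their summed level was 4304 to 6863 CPM against 2982 to 3666 CPM in Chd8 +/+. Their part in the Kcnn4 result was not tested. Kcnab2, a cytoplasmic beta subunit of Kv1 channels, was the other member that rose in Chd8 neo/- (0.22 (edgeR adjusted p = 0.0202, SE 0.055)). It overlaps Nphp4 on the opposite strand, whose 771.5 counts per library compare with 924.5 for Kcnab2. Of the other auxiliary genes Kcnip2, a partner of Kv4 pores, fell in Chd8 neo/neo (-0.71 (edgeR adjusted p = 0.0364, SE 0.19)). Among the calcium-activated channels, Kcnn1 (SK1) was at 18.9, 20.7 and 20.1 CPM in Chd8 +/+, 18.2, 18.5 and 17.5 in Chd8 +/-, 15.4, 18.5 and 15.8 in Chd8 neo/neo and 14.9, 14 and 14.4 in Chd8 neo/- libraries. The log2 fold changes were -0.27 (edgeR adjusted p = 0.0359, SE 0.071) and -0.46 (edgeR adjusted p = 0.0013, SE 0.072), and the Chd8 neo/neo call was lost in 8 of 22 alternatives. No inward rectifier and no two-pore channel was called against Chd8 +/+ in either hypomorph, although 8 of 12 and 6 of 8 lay below 0 in each.

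**Figure D3:**
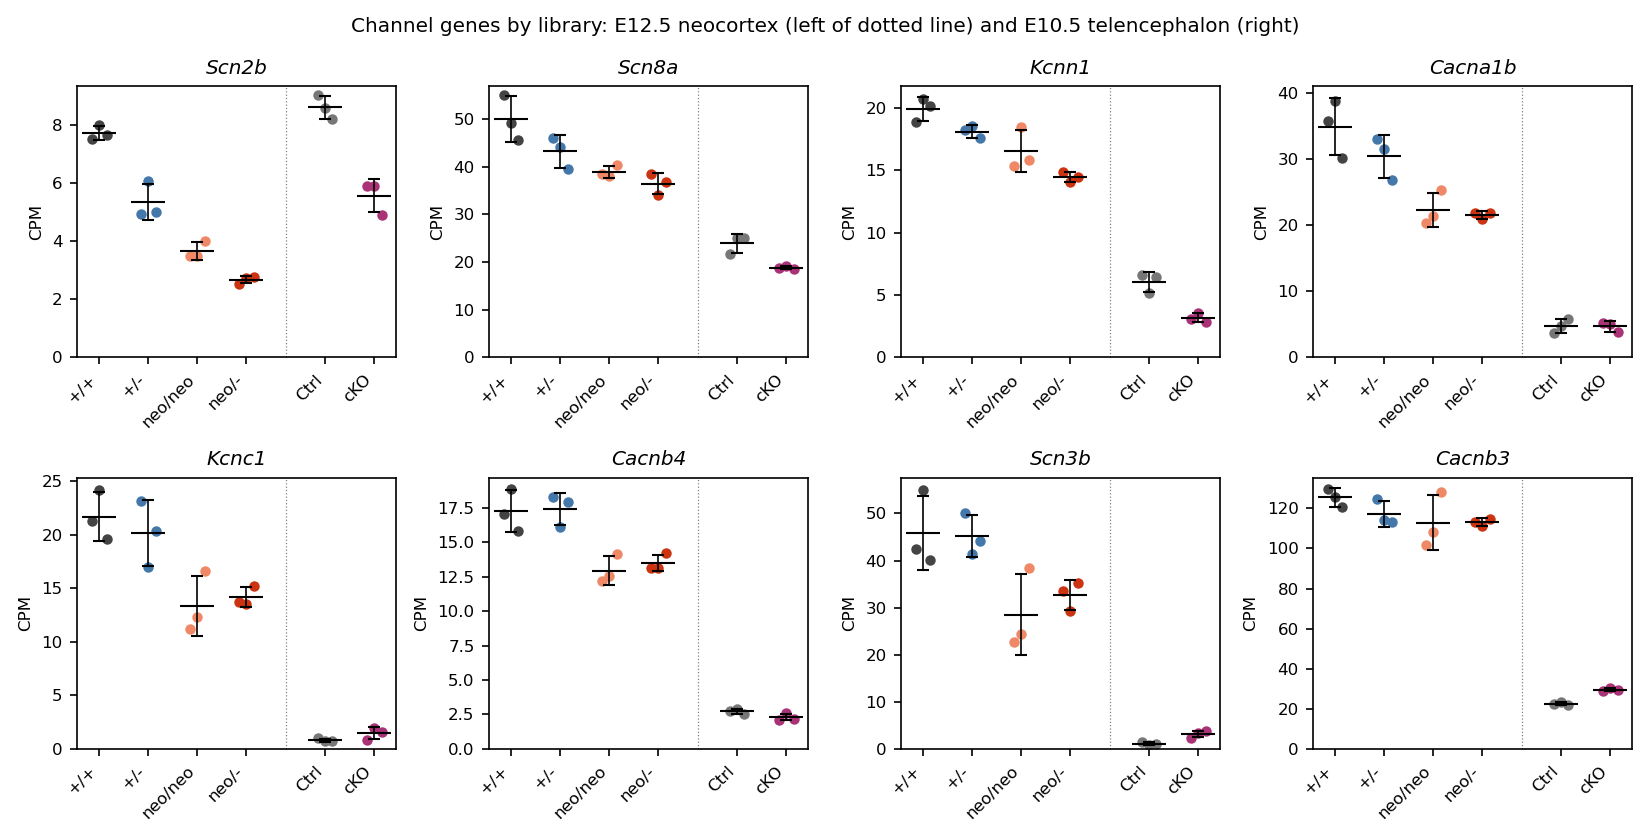
Level in CPM of 8 channel genes, 1 point per library, with the mean (bar) and SD (n = 3) of each group; the 4 genotypes at E12.5 lie left of the dotted line in each panel, Ctrl and cKO at E10.5 right of it, and each vertical axis starts at 0. Scn2b falls from 7.70 CPM in Chd8 +/+ to 2.67 CPM in Chd8 neo/-, Cacna1b and Cacnb4 are lower in both hypomorphs, and Scn3b and Cacnb3 are higher in cKO than in Ctrl.

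**Figure D4:**
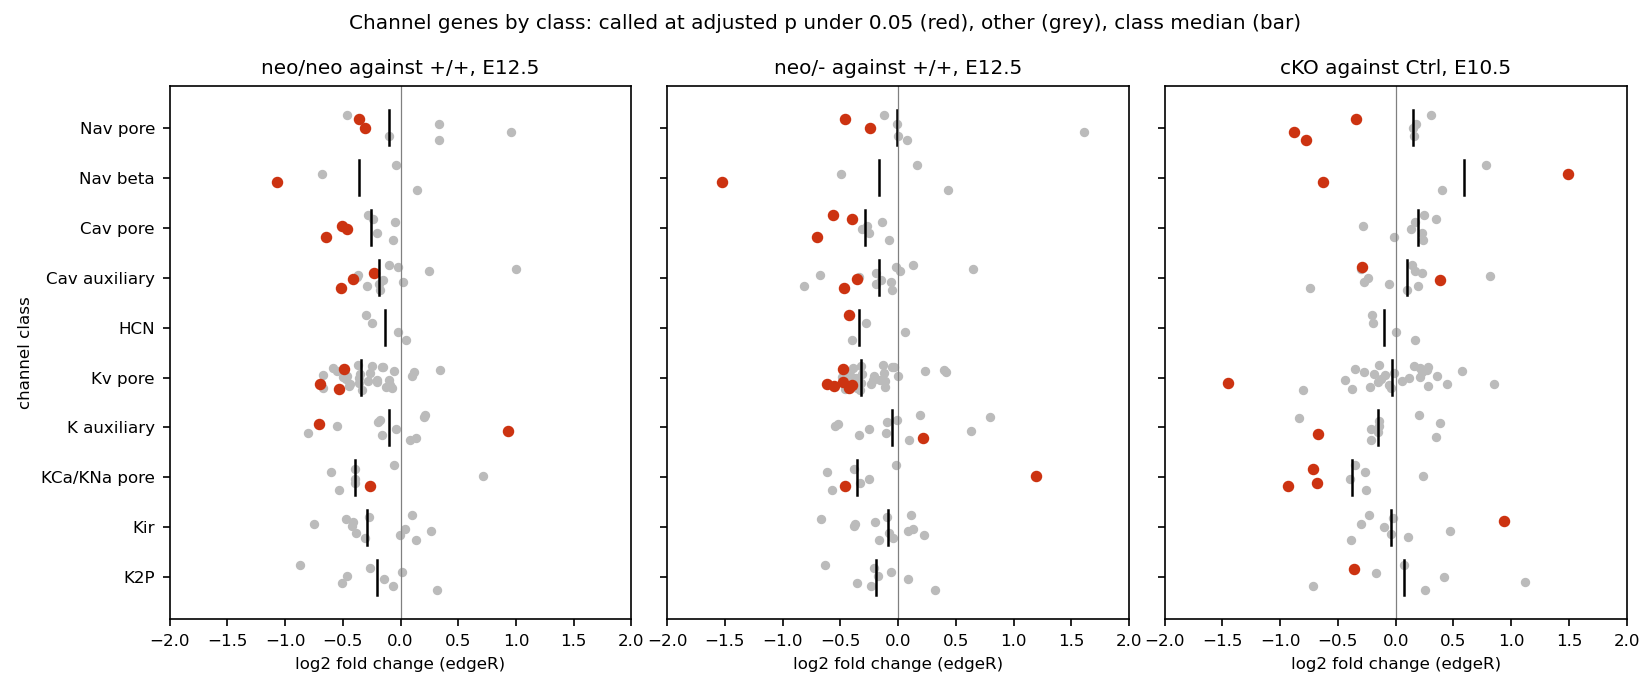
Log2 fold change of every member tested (1 point per gene) by channel class, for Chd8 neo/neo and Chd8 neo/- against Chd8 +/+ at E12.5 and for cKO against Ctrl at E10.5; red points passed an adjusted p of 0.05 and black bars are class medians. In both hypomorphs all 8 calcium channel pores and 29 of 32 voltage-gated potassium pores lie left of 0, and at E10.5 points lie on both sides.

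Against Chd8 +/-, 15 of 109 members (13.8%) were lower in Chd8 neo/neo and none higher, beside 3.28% of all genes that were lower and 5.28% in either direction. The largest of these falls was that of Kcnk3, an acid-sensitive two-pore channel, at 1.36, 0.956 and 1.2 CPM in Chd8 +/- and 0.52, 0.446 and 0.735 CPM in Chd8 neo/neo libraries (-1.04 (edgeR adjusted p = 0.0267, SE 0.23)). Kcnk3 shares its locus with Gm9899 on the other strand, at 27.8 counts per library against 37.6. Kcnq3 was at 23, 22.4 and 19.3 CPM and 9.73, 13.3 and 16.3 CPM, with -0.71 (edgeR adjusted p = 0.0432, SE 0.17). The others were Kcnv1 (-0.69), Kcna6 (-0.63), Kcna2 (-0.62), Scn9a (-0.60), Cacna2d3 (-0.60), Kcnc1 (-0.59), Scn2b (-0.54), Kcnb2 (-0.48), Cacna1b (-0.44), Cacnb4 (-0.43), Scn3a (-0.30), Kcnk2 (-0.29) and Cacna2d1 (-0.20), all log2 fold changes. Deviations of same-numbered libraries of these 2 groups were weakly correlated (0.108, 0.195 and 0.199), and pairs of different numbers were not computed. With the replicate number as a block 5 members were called and 10 of the 15 calls were lost. No call held in all 23 alternatives. The count was 34 when Chd8 neo/neo replicate 3 was left out, 0 when its replicate 1 or 2 was, 1 without Chd8 +/- replicate 1, 7 without Chd8 +/- replicate 3, 9 without Chd8 +/+ replicate 3 and 7 without Chd8 neo/- replicate 1.

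Between the hypomorphs no member was called, as 0.0159% of all genes were, while 13 of 109 had an unadjusted p under 0.05 in edgeR and DESeq2 called 0. Scn2b had the clearest separation, at 3.5, 3.47 and 4.01 against 2.53, 2.71 and 2.78 CPM (-0.45 (edgeR adjusted p = 0.41, SE 0.11)). Group means fell at each step of the order Chd8 +/+, Chd8 +/-, Chd8 neo/neo, Chd8 neo/- for 17 of 109 members (15.6%), among them Scn2b, Scn8a, Cacna1b, Cacna1a, Cacna1h, Cacna1i, Hcn3, Hcn4, Kcnk10 and Kcnn1. The same order held for 8.2% of all genes tested. For 3 members (2.75%) the means rose at each step, against 9.72% of all genes.

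Markers of neurons were lower as well in the hypomorphs, though their sums in Chd8 neo/- overlapped those in Chd8 +/+. Over 15 neuron markers the summed level was 4507 to 5356 CPM in Chd8 +/+, 4754 to 5388 in Chd8 +/-, 3589 to 4312 in Chd8 neo/neo and 3998 to 4580 CPM in Chd8 neo/- libraries. In Chd8 neo/neo 4 of 15 were called lower (Dcx, Map2, Elavl4 and Snap25) with all 15 below 0 and a median log2 fold change of -0.32, and in Chd8 neo/- 2 were (Dcx and Map2), with 14 below 0 and a median of -0.16. The summed level of all channel genes without Scn2a was 1843 ± 82 CPM (SD, n = 3) in Chd8 +/+, 1780 ± 83.7 in Chd8 +/-, 1562 ± 119.5 in Chd8 neo/neo and 1572 ± 36.9 CPM in Chd8 neo/-. For these channel sums neither hypomorph overlapped Chd8 +/+. In bulk tissue fewer neurons and less channel mRNA per neuron cannot be told apart, and the part of the neuron markers in the channel results was not tested. Beside these sums, the mean of Scn2b was 2.67 CPM in Chd8 neo/- against 7.70 CPM in Chd8 +/+. Of the remaining marker lists, the ventral gene Gad1 was lower in both hypomorphs (log2 fold changes -0.40 and -0.34), the pericyte genes Abcc9 and Anpep and the endothelial gene Kdr were lower and Sox2 and Pax6 higher in Chd8 neo/neo, and no marker of Cajal-Retzius cells, mesenchyme, microglia or choroid plexus was called in either hypomorph.

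**Figure D5:**
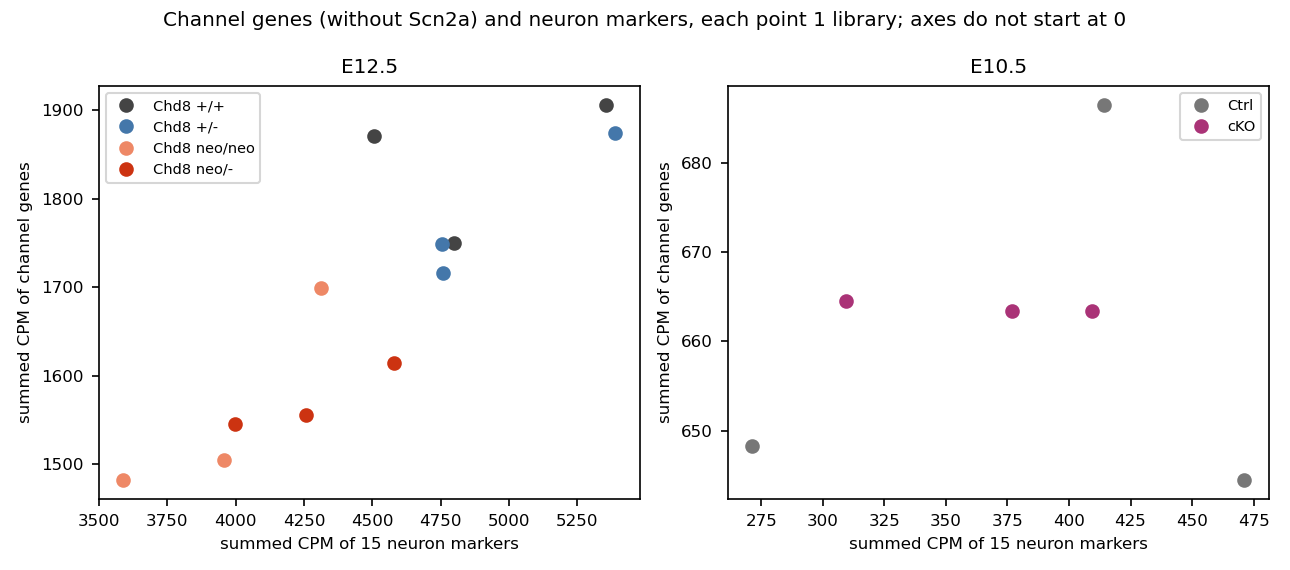
Summed CPM of the channel genes without Scn2a (vertical axis) against summed CPM of 15 neuron markers (horizontal axis), 1 point per library coloured by group, at E12.5 (left) and E10.5 (right); the axes do not start at 0. At E12.5 the 6 hypomorph libraries reach at most 1699 CPM of channel genes, under every Chd8 +/+ and Chd8 +/- library, and at most 4580 CPM of neuron markers, and at E10.5 the cKO libraries lie within the range of Ctrl on both axes.

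Some genes whose products anchor or bind these channels were also lower at E12.5. Of 40 such partners (39 tested), a list chosen with earlier results known, 15 were lower, as 4.45% of all genes were, and none higher in Chd8 neo/neo, with a median log2 fold change of -0.29, and 13 were lower, as 5.99% of all genes were, and 1 higher in Chd8 neo/-, with a median of -0.23. Anchors of the axon initial segment were among them: Ank3 (ankyrin-G) had -0.39 (edgeR adjusted p = 0.0236, SE 0.09) in Chd8 neo/neo and -0.40 (edgeR adjusted p = 0.015, SE 0.09) in Chd8 neo/-, and Nfasc -0.39 (edgeR adjusted p = 0.0139, SE 0.08) and -0.35 (edgeR adjusted p = 0.0166, SE 0.08). Nalcn, the sodium leak channel, had -0.44 (edgeR adjusted p = 0.0175, SE 0.099) and -0.44 (edgeR adjusted p = 0.013, SE 0.1), and its regulator Unc79 fell as well. Of the active zone proteins that hold presynaptic calcium channels, Rimbp2 had -0.58 (edgeR adjusted p = 0.0034, SE 0.092) and -0.72 (edgeR adjusted p = 0.00033, SE 0.092), and Rims1 and Rims2 were lower in both.

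At E10.5, with Chd8 lost from the neuroepithelium, the share of channel genes called was near that of all genes, and most of those called were lower. Of 98 members tested 14 (14.3%) were called in cKO, beside 11.4% of all 18435 genes tested. Of these 11 were lower, as 5.7% of all genes were, and 3 higher, as were 5.75%. The median log2 fold change was -0.03 against 0.00 over all genes. The groups did not overlap for 15 members lower in cKO and 15 higher, where 16.6% and 15.7% of all genes did so. The count was 9 without Ctrl replicate 3, 5 without cKO replicate 2 and 7 without cKO replicate 3. Scn2a, Scn2b, Scn3b, Kcnn1 and Kcnt2 kept their calls in all 14 alternatives.

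Of the sodium channels, 3 of 7 pores fell in cKO, as 5.7% of all genes did. Scn2a was at 4.11, 3.27 and 2.99 CPM in Ctrl and 1.91, 1.84 and 1.89 CPM in cKO libraries, with no split between libraries at this stage (-0.88 (edgeR adjusted p = 0.00536, SE 0.15)). Scn11a, a pore known from sensory neurons, was at 3.5, 2.69 and 4.54 and 1.94, 2.02 and 2.32 CPM (-0.78 (edgeR adjusted p = 0.0232, SE 0.19)), and Scn8a at 21.6, 25.1 and 25 and 18.8, 19.1 and 18.5 CPM (-0.35 (edgeR adjusted p = 0.0222, SE 0.082)). The beta subunits moved in opposite directions. Scn2b was at 9, 8.58 and 8.19 CPM in Ctrl and 5.9, 5.87 and 4.9 CPM in cKO, with -0.63 (edgeR adjusted p = 0.00526, SE 0.11), and Scn3b at 1.51, 0.876 and 0.948 CPM in Ctrl and 2.38, 3.29 and 3.73 CPM in cKO, with 1.5 (edgeR adjusted p = 0.00374, SE 0.23). Every cKO library lay below every Ctrl library for Scn2b and above for Scn3b.

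Calcium-activated and sodium-activated potassium channels gave 3 falls among 8 genes (37.5%), beside 5.7% of all genes that were lower. Kcnn1 was at 6.57, 5.12 and 6.46 CPM in Ctrl and 3.1, 3.54 and 2.87 CPM in cKO (-0.93 (edgeR adjusted p = 0.0023, SE 0.14)). Kcnn2, its SK2 relative, was at 2.47, 2.79 and 2.42 and 1.82, 1.39 and 1.57 CPM (-0.68 (edgeR adjusted p = 0.0189, SE 0.15)), and Kcnt2, a sodium-activated channel, at 4.07, 4.82 and 5.12 and 2.6, 3.04 and 2.9 CPM (-0.71 (edgeR adjusted p = 0.00757, SE 0.13)). Of 28 voltage-gated potassium pores only Kcnc2 was called (3.57%, beside 11.4% of all genes). It had -1.45 (edgeR adjusted p = 0.03, SE 0.37) from levels under 1 CPM in every library. The beta subunit gene Kcnab3 fell (-0.67 (edgeR adjusted p = 0.021, SE 0.16)). Kcnk5, the highest two-pore channel at this stage, was at 27.6, 24.2 and 27.7 CPM in Ctrl and 21.3, 19.4 and 21.4 CPM in cKO (-0.36 (edgeR adjusted p = 0.0199, SE 0.082)). Kcnj4, an inward rectifier that reached the minimum only at this stage, was at 0.65, 0.498 and 0.608 and 0.961, 1.02 and 1.38 CPM (0.94 (edgeR adjusted p = 0.0211, SE 0.22)).

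No calcium channel pore was called at E10.5, and 6 of 8 had log2 fold changes above 0. Cacnb3, a beta subunit, was at 22.3, 23.4 and 22 CPM in Ctrl and 28.8, 30.2 and 29.3 CPM in cKO (0.38 (edgeR adjusted p = 0.00673, SE 0.069)), and Cacng7 at 97.8, 86.4 and 101 and 81.9, 75.3 and 76.6 CPM (-0.29 (edgeR adjusted p = 0.0242, SE 0.07)). Cacna1b and Cacnb4 had log2 fold changes of -0.02 and -0.24 and did not pass. The summed level of neuron markers was 271 to 471 CPM in Ctrl and 309 to 409 CPM in cKO, and that of channel genes without Scn2a 659.7 ± 23.3 and 664 ± 0.680 CPM. Pericyte markers were at 75.4 to 82.1 CPM in cKO against 49.9 to 66.4 CPM in Ctrl, with 2 of 5 called higher, as 5.75% of all genes were, and mesenchymal markers at 808 to 999 against 648 to 737 CPM, with 2 of 7 called higher. In addition, 1 gene each of the endothelial, microglial and dorsal midline lists was higher. Lower were 1 of 15 neuron markers (median log2 fold change -0.10) and 1 of 8 ventral markers (median -0.38), as 5.7% of all genes were. The part of all these cells in the E10.5 results was not tested. Of the 39 channel partners tested, 4 (Gem, Pex5l, Rims2 and Rimbp2) were lower in cKO, as 5.7% of all genes were. Higher were 2 (Calm3 and Akap6), as were 5.75% of all genes.

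Scn2b, Scn8a and Kcnn1, with the promoter windows given above, were the 3 members called in cKO among the 24 called in at least 1 hypomorph and among the 14 called in cKO. In cKO 14.3% of all members tested and 11.4% of all genes were called, so 3 of 24 is near those shares. All 3 were lower in every mutant group concerned, with log2 fold changes in Chd8 neo/neo, Chd8 neo/- and cKO of -1.07, -1.52 and -0.63 for Scn2b, -0.36, -0.46 and -0.35 for Scn8a, and -0.27, -0.46 and -0.93 for Kcnn1. The E12.5 and E10.5 comparisons share no library, but differ in allele and stage as well as in tissue.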

How the data were processed

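Counts of RNA sequencing reads per gene were used for 12 E12.5 neocortex libraries and 6 E10.5 telencephalon libraries. According to the study's methods and the submitters' processing notes, the authors trimmed paired reads with Trim Galore 0.4.1, aligned them to GRCm38 with TopHat2 2.1.0 and counted them on genes with featureCounts 1.5.0. The authors deposited raw counts per gene and run, without normalization. The E12.5 file header shows no strand option, and options for E10.5 are not given in the sources used here, so that overlapping genes and near-identical family members can share reads.

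Both runs of a library were summed. Genes passing filterByExpr (18810 and 18435) were scaled by TMM and tested with edgeR 4.0.16 (robust quasi-likelihood) in R 4.3.3, in 1 fit per stage with group as the only term. P-values were adjusted by Benjamini-Hochberg over all genes tested. Fits were tested on simulated data. CPM use TMM factors. Of the members, 1 gene (Kcne2) was not tested at E10.5. Promoter windows came from a RefSeq table of GRCm38.p6. The results of some genes are not reported here.

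Members and lists were chosen with earlier results of these data known. Genes named were, in each comparison, all called members or, where over 12 were called, the 8 largest falls and rises without overlap; those called in both hypomorphs; the highest of each class per kilobase; and 14 channels of young neurons or of neurodevelopmental disorders. Cacng2, Cacng4, Cacng6, Cacna1h, Cacna2d1, Hcn4, Kcna1, Kcna3, Kcnb2, Kcnd3, Kcng1, Kcnh7, Kcnh8, Kcnj8, Kcnk1, Kcnk2 and Kcnk13 were named after their values were seen. Chd8 +/- libraries and the Chd8 neo/neo libraries of the same number deviated from their group means with correlations of 0.108, 0.195 and 0.199. No other comparison reached 0.1 in every pair, and the lowest single pair was at -0.268 (Chd8 neo/neo and Chd8 +/+ replicate 3). Pairs of different numbers were not computed, and no label or method says that the numbers pair these groups. The replicate block is therefore given as an alternative only. Alternatives were DESeq2 1.42.0, RLE and upper quartile scaling, no filter, the replicate block, each run alone, a length and GC offset, only the 2 groups compared, a sex-linked term and each library left out.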

Additional observations from a re-analysis of the deposited data

Results flagged for a closer look

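For 7 members every cKO library lay on one side of every Ctrl library at E10.5 and every Chd8 neo/- library on the other side of every Chd8 +/+ library at E12.5. The share of all genes that meet both conditions was not computed, so 7 is not read as a trait of channel genes. Taken singly, groups did not overlap for 16.9% (lower) and 16.4% (higher) of all genes in Chd8 neo/-. In cKO these shares were 16.6% and 15.7%. The difference between the 2 effects was not tested, and the stages differ in allele, tissue and table as well as in age. Log2 fold changes, in Chd8 neo/- and then in cKO, were -0.49 and 1.5 for Scn3b, the widest of these gaps, -0.35 and 1.12 for Kcnk13, -0.40 and 0.35 for Cacna1h, and -0.49 and 0.21 for Kcng1. They were -0.19 and 0.22 for Cacng4, -0.15 and 0.38 for Cacnb3, and, in the opposite sense, 0.65 and -0.30 for Cacng6. Of these 14 effects, 3 passed the threshold in edgeR: Cacna1h in Chd8 neo/-, and Cacnb3 and Scn3b in cKO.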

How the results depend on the processing

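Of the 5883 values of single genes recomputed under the alternatives, 5320 kept their direction and their side of the threshold, 286 lost the threshold, 79 passed it only in the alternative, and 198 changed sign, all of them called in neither fit. The widest sign changes were those of Scn2a in Chd8 neo/neo without its replicate 3, from 0.95 to -0.99 against Chd8 +/+ and from 0.96 to -0.98 against Chd8 +/-; in the others the smaller of both log2 fold changes was at most 0.083 in size. The number of channel genes called depended more on the setting. With DESeq2 it was 1 in Chd8 +/- (0 with edgeR), 29 in Chd8 neo/neo against Chd8 +/+ (15) and 24 in Chd8 neo/neo against Chd8 +/- (15). With a length and GC offset it was 8 and 4 in the latter 2 comparisons. With only the 2 groups in the fit it was 6 in Chd8 neo/neo, 39 in Chd8 neo/- (18) and 0 in Chd8 neo/neo against Chd8 +/-. In that last comparison it was also 8 with run 2 alone, 3 with the sex-linked term, 5 with the replicate block, and 3 with the replicate block together with a length and GC offset. Leaving out 1 library at a time gave 0 to 0 in Chd8 +/-, 4 to 38 in Chd8 neo/neo, 5 to 27 in Chd8 neo/-, 0 to 34 in Chd8 neo/neo against Chd8 +/-, 0 to 0 between the hypomorphs and 5 to 16 in cKO. The replicate block elsewhere gave 0 in Chd8 +/-, 13 in Chd8 neo/neo, 14 in Chd8 neo/-, 0 between the hypomorphs and 17 in cKO. In every comparison, same-numbered samples are known to share only a number. Fits without a replicate or with 2 groups hold fewer samples; the cause of the other shifts was not tested. Members under 1 CPM, such as Kcnk3, Kcnc2 and Kcnj4, rest on few counts.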

Other observations

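Scn2a gave the same split in each sequencing run. In run 1 it was at 72.1 CPM of the library total in Chd8 neo/neo replicate 3 and 65.2 and 60.4 CPM in Chd8 neo/- replicates 1 and 2, from 1922, 1525 and 1714 reads, against 9.59 CPM from 232 reads in Chd8 neo/- replicate 3. In run 2 the values were 70.0, 65.3, 59.5 and 10.6 CPM. Of genes with a mean of at least 1 CPM, 8 had a step as large as that of Scn2a with 3 to 9 libraries above it, and 5 of them (Ddx3y, Eif2s3y, Kdm5d, Uty and Xist) are sex-linked. The others were Gm6969, Nkx2-2 and Scn2a. All 3 libraries with high Scn2a had low Xist, as did 5 of the 9 others.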
